A study of Mus musculus with 12 samples.

Results

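The genes described here are the mouse histone genes, both replication-dependent and variant. They were taken as the protein-coding genes whose GENCODE vM21 symbol starts with Hist1h, Hist2h, Hist3h, Hist4h, H2af, H3f3 or H1f and whose read counts summed to 120 or more over the 12 libraries. The symbols match 82 protein-coding genes, of which 70 reached the minimum, out of 55536 annotated genes in the count table. Of the 70, 62 are replication-dependent (5 H1, 16 H2A, 17 H2B, 11 H3 and 13 H4 genes) and 8 are variants (H1f0, H2afj, H2afv, H2afx, H2afy, H2afz, H3f3a and H3f3b). The minimum used summed counts only, and no comparison between groups entered it. Hist2h2aa1, however, reached it through libraries of a single group, as described below.

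RNA was sequenced from CD8+ T cells that were sorted from the spleen and lymph nodes of mice. The cells were OT-I cells, whose transgenic T cell receptor recognizes the SIINFEKL peptide of ovalbumin. The labels give their strain as OT-1 Tg C57BL/6J, and per the study's methods the donors also lacked Rag1 or Rag2. In the Ag group (n = 5) OT-I cells were transferred into C57BL/6J mice that then received the peptide with rat IgG. In the Ag+Costim group (n = 5) the recipients received the peptide with agonist antibodies to CD134 (OX40) and CD137 (41BB), 2 costimulatory receptors. The transferred cells were recovered 4 days later according to the labels, whereas the study's methods give a time of less than 4 days after stimulation. The Naive group (n = 2) was OT-I cells taken from OT-I mice without transfer, so it differs from the other groups in transfer and host as well as in antigen. The mice were adults of both sexes, and their ages are not given per library. The labels do not say which libraries came from separate mice, so p-values measure the spread between these libraries.

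Histones are the proteins around which DNA is wrapped. H2A, H2B, H3 and H4 form the core of the nucleosome, and H1 binds the linker DNA between cores. Replication-dependent histone genes lie in clusters and are transcribed mainly in S phase, when new DNA has to be packaged. Their mRNAs normally end in a short stem-loop in place of a poly(A) tail, and the stem-loop is bound by the protein that Slbp encodes. Variant histones are made outside S phase too, from genes that mostly have introns and polyadenylated mRNAs. They include H2A.Z (H2afz and H2afv), H2A.X (H2afx), macroH2A (H2afy), H2A.J (H2afj), H3.3 (H3f3a and H3f3b) and the linker histone H1.0 (H1f0). After antigen, CD8+ T cells divide rapidly, and the level of histone mRNA is widely read as a sign of how many cells are replicating DNA.

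Of the 62 replication-dependent genes, 52 belong to the Hist1 cluster, which spans positions 21715763 to 23934156 of chromosome 13 in mm10. The transcripts of 60 have a single exon, against 3 of the 8 variants. The stem-loop was searched in the GENCODE transcript of each gene on the transcript strand as GG, any 3 bases, TT, any base, T, any base, A, any 3 bases and CC (16 bases in all), with the first 6 bases able to pair with the last 6. It was found in 44 of 62 replication-dependent genes, in 1 of 8 variants and in 69 of 21901 protein-coding genes (0.315%). Of the 18 replication-dependent genes without it, 15 have an annotated transcript that ends within 20 bases of the stop codon. All 32 stem-loops of H1, H2A, H2B and H3 genes had the same 6-base stem, and 10 of the 12 in H4 genes had another. Of the following, Hist1h2ap, Hist1h4d and Hist1h3g are shown because each carries a largest or highest value of its type below. H2afx is shown as the variant with a stem-loop. The 4 loop bases are in capitals, and all sequences are read 5′ to 3′ on the transcript strand in mm10.
Hist1h2ap (chr13:21833029-21833044, minus strand): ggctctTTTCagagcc
Hist1h4d (chr13:23581950-23581965, plus strand): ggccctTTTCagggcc
Hist1h3g (chr13:23535889-23535904, plus strand): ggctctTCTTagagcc
H2afx (chr9:44335240-44335255, plus strand): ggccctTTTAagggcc

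The 2 replication-dependent genes with the highest counts, Hist1h2ap and Hist1h2ao, also carry a run of 12 adenines that starts 26 bases after the stop codon and ends directly before the stem-loop. The run is shown because the libraries were primed with oligo-dT, which anneals to runs of adenine. Of all protein-coding genes, 9.28% hold a run of 12 or more adenines somewhere in a transcript, and 3 of the 62 replication-dependent genes do. The capitals mark the run, and the last 8 bases belong to the stem-loop.
Hist1h2ao (chr13:21810878-21810905, plus strand): ccgaaaagAAAAAAAAAAAAggctcttt
Hist1h2ap (chr13:21833037-21833064, minus strand): ccgaaaagAAAAAAAAAAAAggctcttt
The remaining gene with such a run, Hist1h2ac, has 15 adenines and 30579 counts. Hist1h2ah, whose longest run is 2, has 89410 counts. Whether reads from Hist1h2ao and Hist1h2ap start at the run was not tested. In all, 22 replication-dependent genes have more than 100 annotated bases after the stem-loop, and 13 of the 62 (6 of 8 variants) have AATAAA or ATTAAA in the last 40 bases of the transcript. The levels below are thus levels in RNA primed with oligo-dT and need not stand for all histone mRNA. How far the priming shaped them was not tested. Bulk RNA also cannot tell apart fewer cells that express a gene and less RNA per cell.

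Depth was between 39994606 and 49258758 annotated counts per library except for Ag 4, which had 23976932. Spearman correlations between libraries of a group were 0.966 to 0.984 over all genes. The summed level of 6 CD8 T cell markers was 7123 to 10762 CPM (counts scaled to library size) in Ag, 3976 to 5462 in Ag+Costim and 9005 to 9664 in Naive. By edgeR 5 of the 6 were lower in Ag+Costim than in Ag, where 26.5% of all genes were lower and 26.6% higher. The same shares stand beside the marker calls that follow. Cd4, the marker of the other T cell lineage, did not exceed 2.44 CPM. Summed B cell markers (5 genes) were at 108 to 155 CPM in Ag, 22.5 to 57.7 in Ag+Costim and 27.2 to 29.7 in Naive, where Pax5 had no count, and 3 of them were lower in Ag+Costim than in Ag. The 7 myeloid markers summed to 28.9 to 162 CPM over all libraries, with 3 higher in Ag+Costim. The 6 erythroid genes ranged from 626 to 6379 CPM in Ag, with the highest value in Ag 4, from 14.5 to 223 in Ag+Costim and from 149.6 to 2069 in Naive, and all 6 were lower in Ag+Costim than in Ag. The 2 NK cell markers summed to 1.22 to 14.5 CPM, with 1 lower in Ag+Costim. The part of these cells in the histone levels was not tested, and the calls without Ag 4 are given below.

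Near-identical copies limit what a single gene's count can say. A window of 100 bases, the read length, was counted as shared when it occurs in another annotated gene. The median share of shared windows was 37.8% over the replication-dependent genes, with 69.9% for H2A, 40.1% for H2B, 42.9% for H3, 19.0% for H4 and 0.792% for H1, against 3.66% over the variants. How reads that match several genes were counted is not given in the sources used here, so the values of single H2A, H2B and H3 copies are uncertain and one read may have entered several of them. Hist1h1a, Hist1h1b, Hist1h4d, Hist2h4, Hist2h2be and H2afv share no window with another gene. No source says that counting used strand, and exons of 22 of the 70 genes overlap a gene annotated on the other strand.

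Replication-dependent histone RNA was lowest in Naive cells, higher in Ag and highest in Ag+Costim, with no overlap between any pair of groups. Its sum over 62 genes was 159 and 173 CPM in the Naive libraries, 1734, 1279, 1607, 1926 and 833 in Ag and 2831, 2407, 2853, 2302 and 2796 in Ag+Costim. The group means were 166 ± 9.59 (SD, n = 2), 1476 ± 429.6 (n = 5) and 2638 ± 262 (n = 5), 8.89-fold higher in Ag than in Naive and 1.79-fold higher in Ag+Costim than in Ag. Ag 5 was the lowest and Ag 4 the highest of the Ag libraries, with a spread wider than that of Ag+Costim. The 8 variant genes together stood at 2518 ± 99.2 CPM in Naive, 5202 ± 582 in Ag and 4709.6 ± 244 in Ag+Costim, where Ag and Ag+Costim overlapped. H2A genes made up 87.2% of the replication-dependent sum in Ag and 87.4% in Ag+Costim, and 50.5% in Naive. Hist1h2ao and Hist1h2ap, the pair with the run of adenines, held 20.9% and 22.0% of the sum in Ag.

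**Figure D1:**
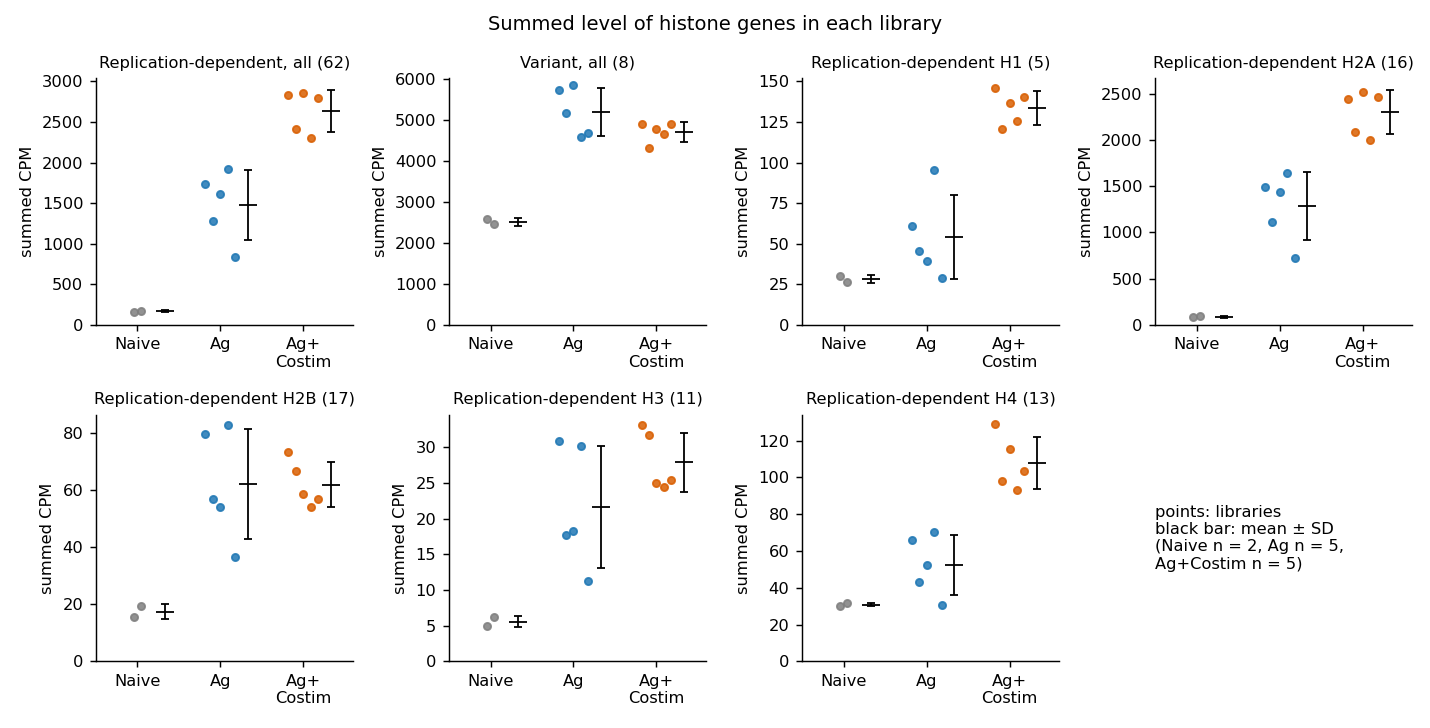
Summed CPM (vertical axis, linear from 0) of the replication-dependent genes, the variants and each replication-dependent type in every library, with the number of genes in brackets, 1 point per library and mean ± SD in black. In H1, H2A and H4 the lowest Ag+Costim point is higher than the top Ag point, while the H2B and H3 sums of the 2 groups overlap. Most of the rise of the H1 sum comes from Hist1h1b, and most of that of the H4 sum from Hist1h4d.

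The comparison of Ag+Costim with Ag asks what costimulation adds to antigen. Of the 62 replication-dependent genes, 19 were higher and 1 was lower in Ag+Costim (edgeR quasi-likelihood test, Benjamini-Hochberg adjusted p below 0.05, all 12 libraries in the fit). In the same test 53.1% of 18817 genes were called, 26.6% as higher and 26.5% as lower. Upper-quartile scaling shifted the median of all genes to -0.24 and the split from 5006 higher and 4979 lower to 4056 and 6338, with 15 replication-dependent genes higher and 4 lower. The share of replication-dependent genes that were higher, 30.6%, is thus close to that of all genes, whereas 1.61% were lower. Their median log2 fold change was 0.31 over all but Hist2h2aa1, whose fold is set by zeros, against -0.05 over all genes tested. The 5 Ag+Costim values all exceeded the 5 Ag values for 14 of the 62 genes, and all were under them for 1, against 21.3% and 18.5% of all genes. The calls split by type, with 13 of 16 H2A genes higher but 1 of 17 H2B, 1 of 11 H3, 2 of 13 H4 and 2 of 5 H1 genes. The 19 and the 13 include Hist2h2aa1, which met the count minimum through Ag+Costim libraries only. Sequence sharing between copies splits the calls as well. Of the 13 replication-dependent genes with under 10% of their 100-base windows shared, 3 were higher (23.1%), with a median of 0.19. Of the 26 with over 50% shared, 10 were higher (38.5%), with a median of 0.43 without Hist2h2aa1, and 11 of the 26 are H2A genes. The part of shared reads in the split by type was not tested. Without Ag 4, 20 replication-dependent genes were higher.

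Among genes with counts in every library the largest rise belonged to Hist1h1b, a replication-dependent linker histone. It stood at 13.3, 11.3, 8.22, 21.4 and 5.36 CPM in the Ag libraries and at 86.6, 67.8, 81.4, 74.4 and 86.4 in Ag+Costim. Every Ag+Costim library was thus above every Ag library by a wide margin. The log2 fold change was 2.74 ± 0.28 (SE), or 6.69-fold, with an adjusted p of 2.65e-06. Hist1h1e also rose, by 0.71 ± 0.25 on the log2 scale (edgeR adjusted p = 0.02904), and its groups overlapped, with 8.08 to 29.8 CPM in Ag and 26.7 to 30.7 in Ag+Costim. Hist1h1a, Hist1h1c and Hist1h1d had log2 fold changes of 0.59, -0.18 and 0.34, none past the test.

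Hist1h4d, 1 of the 13 H4 genes, showed a change of nearly the same size. Its values were 12.4, 6.96, 11.4, 13.9 and 5.05 CPM in Ag, 67.4, 52.2, 68.2, 55.004 and 62.03 in Ag+Costim and 6.22 and 7.35 in Naive. The log2 fold change over Ag was 2.62 ± 0.24 (SE), or 6.15-fold (edgeR adjusted p = 8.73e-07). Ag and Naive overlapped for this gene, and its difference between them, 0.55 ± 0.31, was not past the test (edgeR adjusted p = 0.167) unless Ag 5 was left out (0.71, adjusted p = 0.0258). No 100-base window of Hist1h1b or Hist1h4d occurs in another annotated gene, so no full-length read from them matches a copy exactly. Hist1h4i was the other H4 gene that rose, from 8.72 ± 2.76 to 14.8 ± 1.42 CPM (0.76 ± 0.21, edgeR adjusted p = 0.00772). The remaining 11 H4 genes had log2 fold changes between -0.40 and 0.43 and SEs of up to 0.36.

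The H2A genes held most of the calls. Hist1h2ap, the replication-dependent gene with the most counts, was at 386, 276, 370.03, 427 and 176 CPM in the Ag libraries. In Ag+Costim it was at 662, 525, 670.3, 569 and 660.1 CPM. The groups did not overlap, and the log2 fold change was 0.92 ± 0.19 (edgeR adjusted p = 0.00112). Its close copy Hist1h2ao went from 309 ± 90.4 to 564 ± 55.3 CPM (0.87 ± 0.18, edgeR adjusted p = 0.001103). Hist1h2ap shares 92.2% of its windows with other genes. Hist1h2ag (150.4 to 263 CPM), Hist1h2ah (165 to 263), Hist1h2ae (77.01 to 126), Hist1h2ad (54.8 to 105) and Hist1h2ab (29.2 to 59.1) rose by 0.67 to 1.02 on the log2 scale. Of these, Hist1h2ae missed the threshold under upper-quartile scaling (0.51, adjusted p = 0.0595). The largest H2A rises with counts in every library were those of Hist1h2ak and Hist1h2an. Hist1h2ak went from 9.48, 5.93, 7.11, 9.89 and 3.896 CPM in Ag to 10.9, 35.3, 32.3, 9.21 and 17.7 in Ag+Costim, where the libraries differed by more than 3-fold among themselves and the lowest fell among the Ag values (1.54 ± 0.37, edgeR adjusted p = 0.00334). Hist1h2an went from 28.7 ± 7.89 to 70.1 ± 21.7 CPM with no overlap (1.29 ± 0.22, edgeR adjusted p = 2.56e-04).

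For 2 H2A copies some libraries had no count at all. Hist1h2ac had no count in Ag+Costim 4 and 32.4 to 72.3 CPM in Ag, against 100.3 to 117 CPM in the other 4 Ag+Costim libraries. With that library its difference was 0.603 ± 0.92 (edgeR adjusted p = 0.615), and without it 0.94 with an adjusted p of 0.00108. Hist2h2aa1 had no count in any Ag or Naive library nor in Ag+Costim 2 and 4, and 614, 307 and 621 counts in Ag+Costim 1, 3 and 5. It thus met the count minimum through Ag+Costim libraries only, and its call cannot stand as support for a rise. Of its exon bases 90.3% are also exon bases of Gm20634 on the same strand. Hist2h2aa1 had an adjusted p of 0.0423 (edgeR), and its mean of 7.45 CPM in Ag+Costim is at least 94.7-fold higher than a floor of 3 counts per Ag library. All of its windows occur in other genes, and the call held without Ag+Costim 2 or Ag+Costim 4 but was lost when any other library was left out or no filter was applied, with adjusted p between 0.0522 and 0.0855.

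Hist3h2a on chromosome 11 was the single replication-dependent gene that fell. It was at 25.4 and 32.1 CPM in Naive, 15.6, 18.98, 17.5, 17.5 and 16.1 in Ag and 8.92, 6.12, 8.02, 11.4 and 10.4 in Ag+Costim, so that the 3 groups lay in descending order without overlap. The log2 fold change of Ag+Costim over Ag was -0.93 ± 0.16 (edgeR adjusted p = 1.97e-04). Its transcript continues 1643 bases past the stem-loop to a poly(A) signal. Of its exon bases 32.99% are also exon bases of Trim17 on the same strand, a gene that stood at 0.669 ± 0.549 CPM in Ag and 0.915 ± 0.467 in Ag+Costim.

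H2B and H3 genes mostly did not pass the test between Ag+Costim and Ag. The H2B sum was 62.1 ± 19.2 CPM in Ag and 62.02 ± 7.92 in Ag+Costim (SD, n = 5 each), and 6 of the 17 fold changes were positive, with a median of -0.05. Hist1h2bm, an H2B gene with 6.59% of windows shared, was at 6.76, 4.23, 5.45, 7.24 and 3.03 CPM in Ag and 7.71, 5.76, 4.91, 3.86 and 4.102 in Ag+Costim. The groups overlapped over most of their range (-0.02 ± 0.299, edgeR adjusted p = 0.9699). Hist1h2bj had the lowest H2B fold change, -0.601 ± 0.24, and an adjusted p of 0.0519 by edgeR, which fell under the threshold without Ag 5 (0.0028). Hist1h2be was the H2B gene whose total count rose, from 6.801, 4.27, 3.099, 4.83 and 3.15 CPM in Ag to 11.95, 10.2, 8.27, 9.87 and 10.1, with no overlap (1.18 ± 0.29, edgeR adjusted p = 0.00391). The rise lay in its non-coding transcript Hist1h2be-203 (1.85 ± 0.887 to 7.45 ± 1.13 CPM, no test). The coding Hist1h2be-202 was at 2.09 ± 1.39 and 2.62 ± 0.636 CPM. Of the exon bases of Hist1h2be 11.2% also belong to Hist1h1e on the same strand, which rose as well. Of the 11 H3 genes, 10 had positive fold changes with a median of 0.37, and Hist1h3d passed the test (1.56 to 2.91 CPM, 0.900 ± 0.298, edgeR adjusted p = 0.0212).

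**Figure D2:**
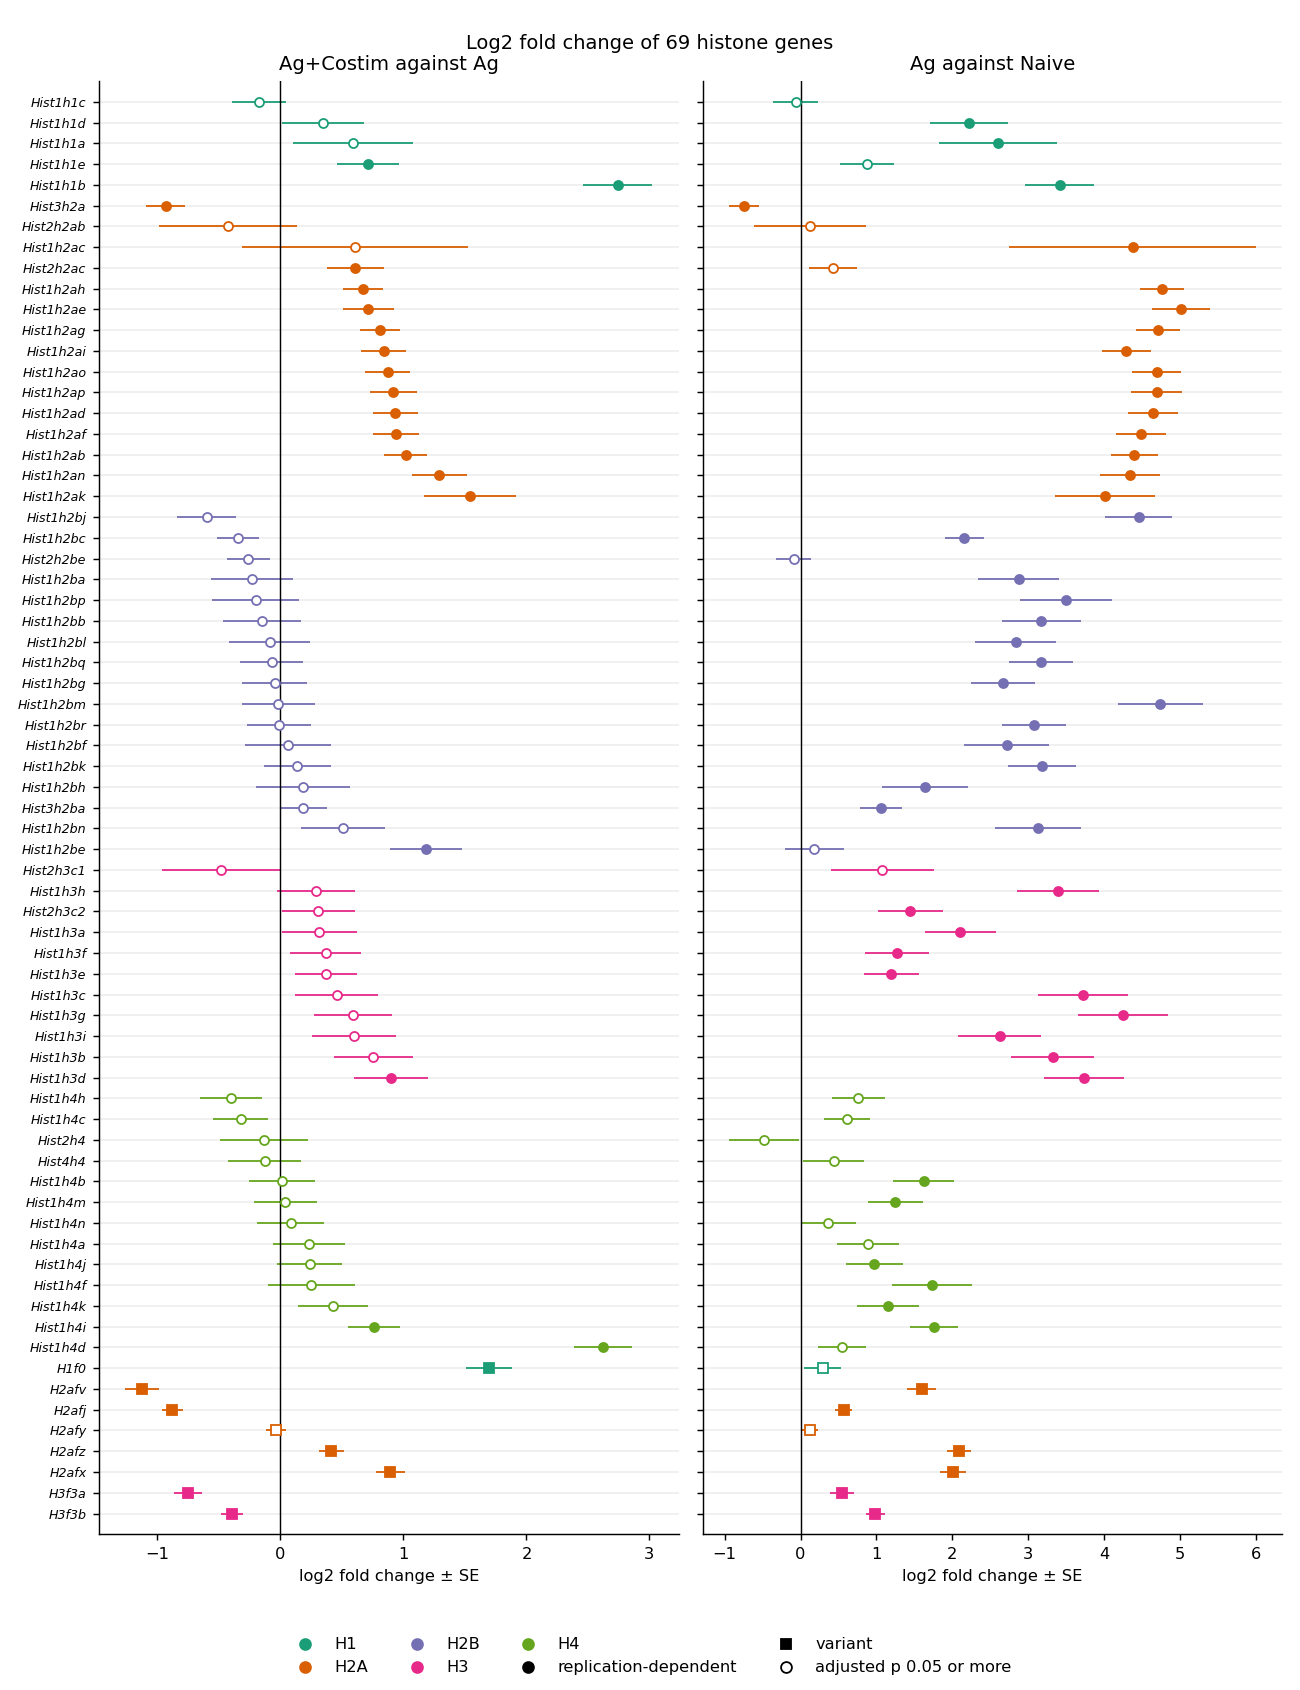
Log2 fold change ± SE (horizontal axes) of 69 histone genes in Ag+Costim against Ag (left) and Ag against Naive (right), coloured by histone type, with squares for variants and open symbols for an adjusted p of 0.05 or more. Hist2h2aa1 is left out because its Ag and Naive libraries have no counts. On the left 13 of the 15 H2A genes plotted lie above 0 (Hist3h2a and Hist2h2ab do not) and the H2B genes lie around 0, with Hist1h1b (2.74) and Hist1h4d (2.62) farthest to the right.

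The variants moved in both directions between Ag and Ag+Costim. Of the 8, 3 rose (H1f0, H2afx and H2afz), 4 fell (H2afv, H2afj, H3f3a and H3f3b) and H2afy did not pass the test, and for the 7 that were called no Ag+Costim library overlapped an Ag library. Of all genes 26.6% were called higher and 26.5% lower. All Ag+Costim values were above all Ag values for 21.3% of genes and below them for 18.5%. H1f0, the linker histone H1.0 known from cells that have left the cycle, was at 12.1, 16.4, 9.11, 8.702 and 7.504 CPM in Ag and at 37.4, 34.5, 35.6, 29.6 and 37.4 in Ag+Costim. That is a log2 rise of 1.69 ± 0.19 (edgeR adjusted p = 5.36e-06) to a level well above Naive as well, which was 9.59 and 8.06. H2afx encodes H2A.X, whose phosphorylation marks DNA breaks, and is the variant with a stem-loop. It was at 291, 285, 242, 242 and 182 CPM in Ag and 435, 412, 494, 472 and 491 in Ag+Costim. All Ag+Costim values exceeded the Ag values, with a log2 rise of 0.89 ± 0.12 (edgeR adjusted p = 2.25e-05).

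H2A.Z is encoded by H2afz and H2afv, and the pair moved in opposite directions. H2afz was at 1444, 1137, 1282, 1034 and 1019.8 CPM in Ag and 1744, 1458, 1600.3, 1469.7 and 1611 in Ag+Costim (0.41 ± 0.105, edgeR adjusted p = 0.00448). H2afv was at 542, 456, 502, 410.1 and 386 CPM in Ag and 213, 152, 199.8, 259 and 227 in Ag+Costim, the largest fall among the members (-1.13 ± 0.13, edgeR adjusted p = 1.02e-05). On the length-scaled FPKM values of the authors, H2afz exceeded H2afv 2.86- to 3.46-fold in the Ag libraries and 7.78- to 11.9-fold in Ag+Costim, and 2.29- to 2.51-fold in Naive. H2afv shares no window with another gene, but 58.8% of the windows of H2afz are shared, and upper-quartile scaling brought the rise of H2afz to 0.22 with an adjusted p of 0.101.

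H3.3, the H3 form deposited outside replication, was lower in Ag+Costim from both of its genes. H3f3a was at 704, 619, 819.7, 511 and 646 CPM in Ag and 408, 345, 379, 428 and 401 in Ag+Costim (-0.75 ± 0.11, edgeR adjusted p = 8.95e-05). H3f3b, which encodes the same protein, was at 2071, 1956, 2168, 1604 and 1702 CPM in Ag and 1506, 1372, 1469.6, 1381 and 1509 in Ag+Costim (-0.39 ± 0.09, edgeR adjusted p = 0.00222). The group ranges did not touch for either gene. Summed FPKM of the H3.3 pair was 983 to 1406 in Ag and 754 to 885 in Ag+Costim. It made up 96.2% to 98.6% of all H3 FPKM in Ag, 95.2% to 96.2% in Ag+Costim and 99.0% to 99.4% in Naive, as seen in poly(A) RNA.

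H2afj, the H2A.J gene, was at 283, 296, 343, 326 and 304 CPM in Ag and 166, 157, 155, 193 and 173 in Ag+Costim. Its change of -0.88 ± 0.08 on the log2 scale (edgeR adjusted p = 1.40e-06) took it below the Naive values of 218 and 201. H2afy, the macroH2A gene, was close to even, with 389, 404, 478, 445 and 434 CPM in Ag and 392, 385, 443, 421 and 453 in Ag+Costim. Its groups overlapped (-0.04 ± 0.08, edgeR adjusted p = 0.7205), and its sign turned without Ag 3. It was called lower under upper-quartile scaling (-0.24, adjusted p = 0.0311) and with a gene length offset (-0.33, adjusted p = 0.0087). Per length, the order of the variants also changed. H3f3b had the highest FPKM in Naive (517 ± 12.7, SD, n = 2) with H2afz at 294 ± 30.6, whereas H2afz led in Ag (1198 ± 194 against 870.1 ± 87.7 for H3f3b, n = 5) and in Ag+Costim (1603 ± 125 against 666 ± 50.7). H1f0 was the lowest in each group, at 5.16 ± 1.76 FPKM in Ag.

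**Figure D3:**
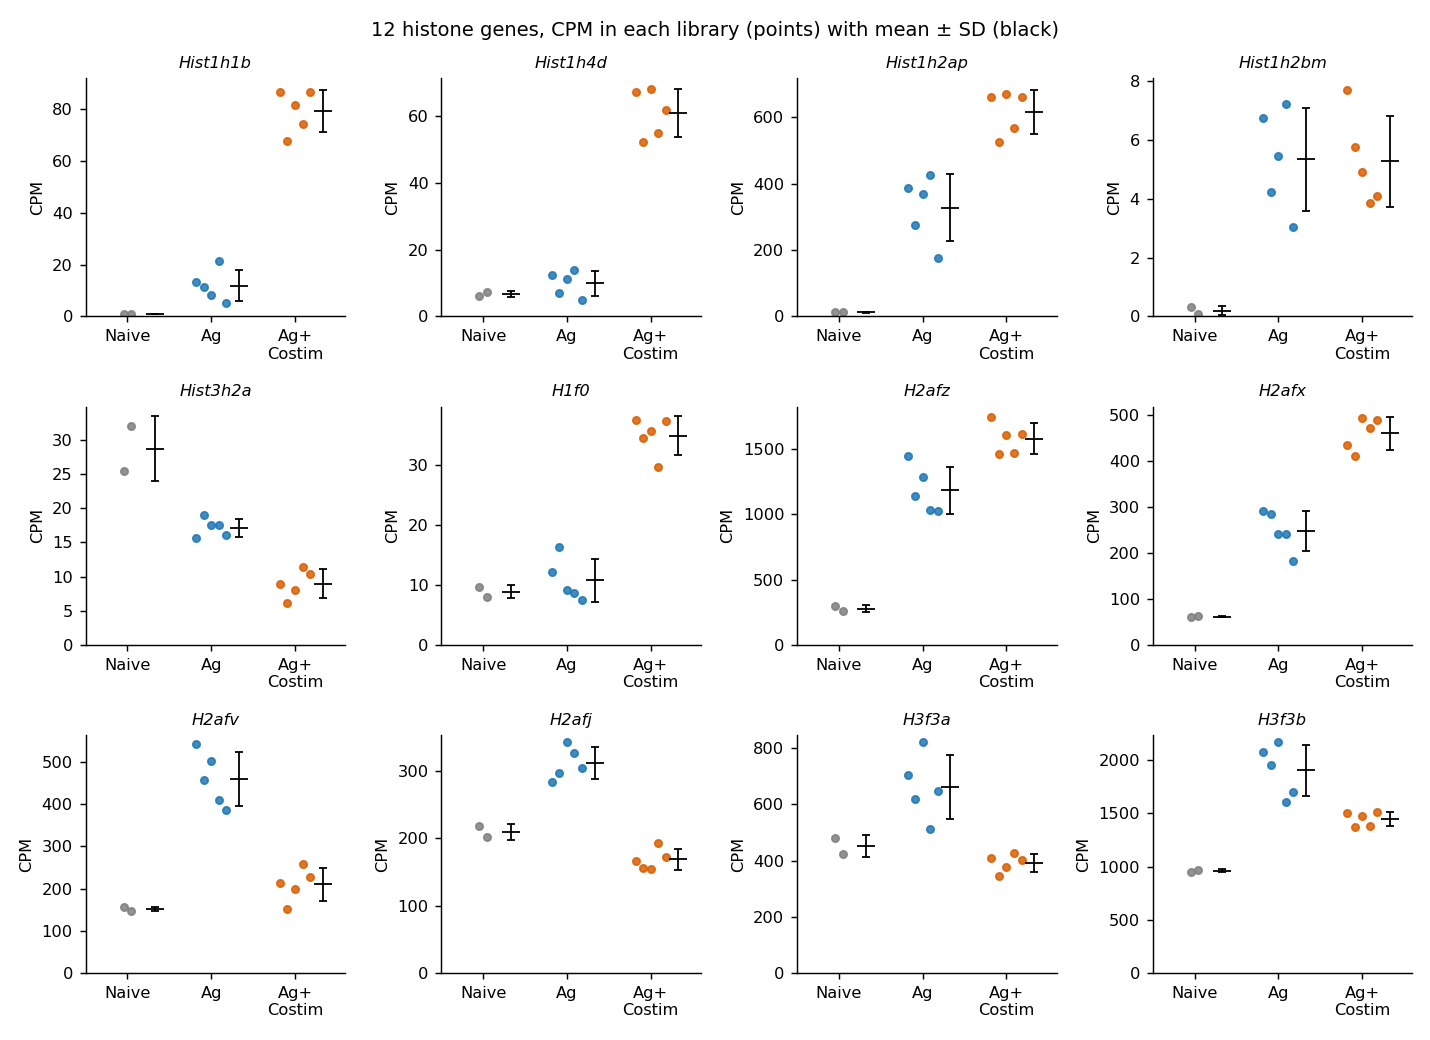
CPM (vertical axes, linear from 0) of 12 histone genes in every library, 1 point per library, with mean ± SD in black (Naive n = 2, Ag n = 5, Ag+Costim n = 5). Hist1h1b, Hist1h4d and H1f0 step up between Ag and Ag+Costim, H2afv, H2afj and H3f3a step down, and Hist1h2bm overlaps between the 2 groups.

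The comparison of Ag with Naive covers antigen, transfer and time in the host together. Of the 62 replication-dependent genes, 46 were higher in Ag, 1 was lower and 15 were not called, whereas 46.7% of all 18817 genes were called, 24.2% as higher and 22.5% as lower. Both Naive libraries lay below all 5 Ag libraries for 46 of the 62, against 27.2% of all genes, and above them for 1, against 29.2%. With 2 Naive libraries, leaving out 1 of them lowered the count to 35 or 36. The median log2 fold change was 2.62 without Hist2h2aa1, against 0.02 over all genes tested. By type, 12 of 16 H2A, 15 of 17 H2B, 10 of 11 H3, 6 of 13 H4 and 3 of 5 H1 genes were higher.

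H2A genes had the highest median of the 5 types, a log2 fold change of 4.40 over the 15 with counts in either group. Hist1h2ae went from 2.35 and 2.44 CPM in Naive to 77.01 ± 25.5 in Ag, a log2 rise of 5.01 ± 0.38 or 32.2-fold (edgeR adjusted p = 4.64e-07). Among H2A genes Hist1h2ah, Hist1h2ag and Hist1h2ap followed with 4.76 ± 0.29, 4.703 ± 0.29 and 4.69 ± 0.33. Hist1h2ap was at 12.04 and 13.3 CPM in the Naive libraries. Hist1h2ac, from 2.68 and 2.898 CPM in Naive to 32.4 to 72.3 in Ag, was called narrowly (4.37 ± 1.62, edgeR adjusted p = 0.04895). Without Ag+Costim 4, the library with no count, its adjusted p was 6.11e-07, and without any other library the call was lost.

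The H2B genes, of which 1 was called between Ag and Ag+Costim, rose from low levels in Naive in 15 of 17 cases. Hist1h2bm had 0.309 and 0.08399 CPM in Naive and 5.34 ± 1.75 in Ag (4.74 ± 0.56, edgeR adjusted p = 1.61e-05). Among H3 genes the largest rise was that of Hist1h3g, from 0.0832 to 1.64 CPM (4.25 ± 0.59, edgeR adjusted p = 6.28e-05), whose stem-loop has the loop TCTT. Hist1h3g in both Naive libraries and Hist1h2bm in Naive 2 were close to the floor of 3 counts, so the size of these folds is loosely set. H4 genes had a median of 0.89, the lowest of the 5 types. Hist1h1b rose by 3.41 ± 0.46 from 1.13 and 1.09 CPM in Naive (edgeR adjusted p = 4.91e-05). Hist3h2a was lower in Ag (-0.74 ± 0.197, edgeR adjusted p = 0.00719), a call that was lost without Naive 2 (adjusted p = 0.119).

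Of the variants, 6 of 8 were higher in Ag than in Naive, against 24.2% of all genes. H2afz rose from 298 and 258 CPM (2.09 ± 0.16, edgeR adjusted p = 4.00e-07). H2afx rose from 60.5 and 63.01 CPM (2.01 ± 0.17, edgeR adjusted p = 1.22e-06). H2afv rose by 1.59 ± 0.19, H3f3b by 0.98 ± 0.13, H2afj by 0.57 ± 0.11 and H3f3a by 0.55 ± 0.16 on the log2 scale. H1f0 (0.29 ± 0.25) and H2afy (0.13 ± 0.11) did not pass the test, with adjusted p of 0.364 and 0.363. H2afv, H2afj, H3f3a and H3f3b thus were higher in Ag than in Naive and than in Ag+Costim, although H3f3a missed the threshold against Naive without Naive 2 (adjusted p = 0.13) and in limma on log2(FPKM + 1), where its change was 0.23 (adjusted p = 0.577).

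Ag+Costim against Naive shares libraries with both comparisons above and adds the total span. Of the 62 replication-dependent genes 51 were higher and 1 lower, where 52.3% of all genes were called, 26.9% as higher and 25.4% as lower. The groups did not overlap for 50 genes that were higher and 1 that was lower, against 31.7% and 34.2% of all genes. Leaving aside Hist2h2aa1, which had no count in Naive, Hist1h1b spanned the widest range, 6.15 ± 0.52 on the log2 scale or 71.2-fold (edgeR adjusted p = 5.92e-07). Hist1h2ae (5.72 ± 0.396), Hist1h2an (5.63 ± 0.42), Hist1h2ap (5.61 ± 0.35) and Hist1h2ad (5.58 ± 0.35) came next. Among the variants 5 were higher, of which H2afv (0.47 ± 0.18, edgeR adjusted p = 0.0435) lost its call under upper-quartile scaling (0.168), without a filter (0.0518), with the 2 groups alone (0.0578), with the replicate block (0.131), and without Ag 2, Ag 3, Ag+Costim 1, 3, 4 or 5 or either Naive library (0.0505 to 0.209). H2afj was lower (-0.31 ± 0.11, edgeR adjusted p = 0.0273), a call also lost without a filter (0.0542), with a length offset (0.103), and without Ag+Costim 2, Ag+Costim 3 or either Naive library (0.0535 to 0.194). H3f3a did not pass the test against Naive (-0.203 ± 0.15, edgeR adjusted p = 0.268).

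Genes that serve histone mRNA and histone proteins were examined from 3 lists. The first holds 23 measured genes of histone mRNA 3′ end processing and turnover. Of these, 15 rose and 3 fell from Ag to Ag+Costim (26.6% and 26.5% of all genes), with a median log2 fold change of 0.71. Slbp, whose product binds the stem-loop, was at 469.6, 429, 438, 373 and 363 CPM in Ag and 712, 674, 685, 587 and 696 in Ag+Costim (0.69 ± 0.09, edgeR adjusted p = 1.83e-05), and at 166 and 159 in Naive. Npat, the coactivator of replication-dependent histone transcription, rose by 1.504 ± 0.11, and Casp8ap2, which works at the same nuclear bodies, by 1.28 ± 0.103. Zfp473, a component of the processing complex, went from 2.18 ± 0.826 to 7.995 ± 2.49 CPM (1.87 ± 0.29). Of the pair that marks the U7 snRNP, Lsm11 rose by 0.71 ± 0.12 while Lsm10 fell by 1.08 ± 0.12 (edgeR adjusted p = 1.49e-04 and 4.90e-06). The largest rises were those of Sympk (3.36 ± 0.17), the scaffold of the cleavage complex, and Upf1 (2.29 ± 0.21), a helicase of histone mRNA decay. Tut4, which adds uridines to histone mRNA, and Lsm1, of the ring that binds its end, were lower, at -0.74 ± 0.099 and -0.47 ± 0.09. In Ag against Naive 7 of the 23 were higher (30.4%) and 8 lower (34.8%), against 24.2% and 22.5% of all genes. Sympk, Cpsf1 and Upf1 were among those that were lower (-2.68 ± 0.197, -1.76 ± 0.14 and -1.47 ± 0.26).

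Histone chaperones and remodellers, which carry histones to DNA or exchange them, make up 25 measured genes. Of these, 20 rose and 3 fell from Ag to Ag+Costim (26.6% and 26.5% of all genes), with a median of 1.08. Chaf1a and Chaf1b, subunits of the CAF-1 complex that deposits H3 and H4 behind the replication fork, rose by 2.15 ± 0.21 and 1.38 ± 0.103 on the log2 scale. Chaf1a was at 23.2 to 48.1 CPM in Ag and 110.5 to 204 in Ag+Costim, without overlap. Asf1b, an H3 and H4 chaperone of dividing cells, rose by 1.43 ± 0.15, whereas its relative Asf1a stood at 89.8 ± 11.7 and 85.6 ± 15.9 CPM (-0.07 ± 0.13, edgeR adjusted p = 0.692). Nasp, which stores soluble H3 and H4, rose by 1.21 ± 0.15. Of the H3.3 chaperones, Hira (1.12 ± 0.19) and Daxx (1.22 ± 0.16) rose and Atrx, the partner of Daxx, was lower (-0.49 ± 0.097). Ubn1 and Ubn2, the partners of Hira, were lower too (-0.499 ± 0.12 and -0.998 ± 0.24). Anp32e, which removes H2A.Z, rose by 1.899 ± 0.096, and Hirip3 by 2.59 ± 0.24. In Ag against Naive 9 of the 25 were higher (36.0%) and 6 lower (24.0%), against 24.2% and 22.5% of all genes. The share that was lower is thus close to that of all genes.

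In the list of 23 genes of S phase and proliferation, 22 were higher in Ag+Costim than in Ag (26.6% of all genes), with a median log2 fold change of 1.95. The replicative helicase gene Mcm2 rose by 2.38 ± 0.14, the ribonucleotide reductase gene Rrm1 by 2.26 ± 0.13 and Pole, the polymerase of the leading strand, by 3.01 ± 0.25. E2f1 did not pass the test (0.32 ± 0.26, edgeR adjusted p = 0.314). In Ag against Naive 21 were higher and 1 was lower (24.2% and 22.5% of all genes), with Ccna2 (4.71 ± 0.31), Rrm2 (4.51 ± 0.29) and Tk1 (4.45 ± 0.31) highest. The lower gene was Cdt1 (-0.44 ± 0.13, edgeR adjusted p = 0.0161), a call lost without either Naive library and with the replicate block. The difference between this list and the replication-dependent genes was not tested.

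**Figure D4:**
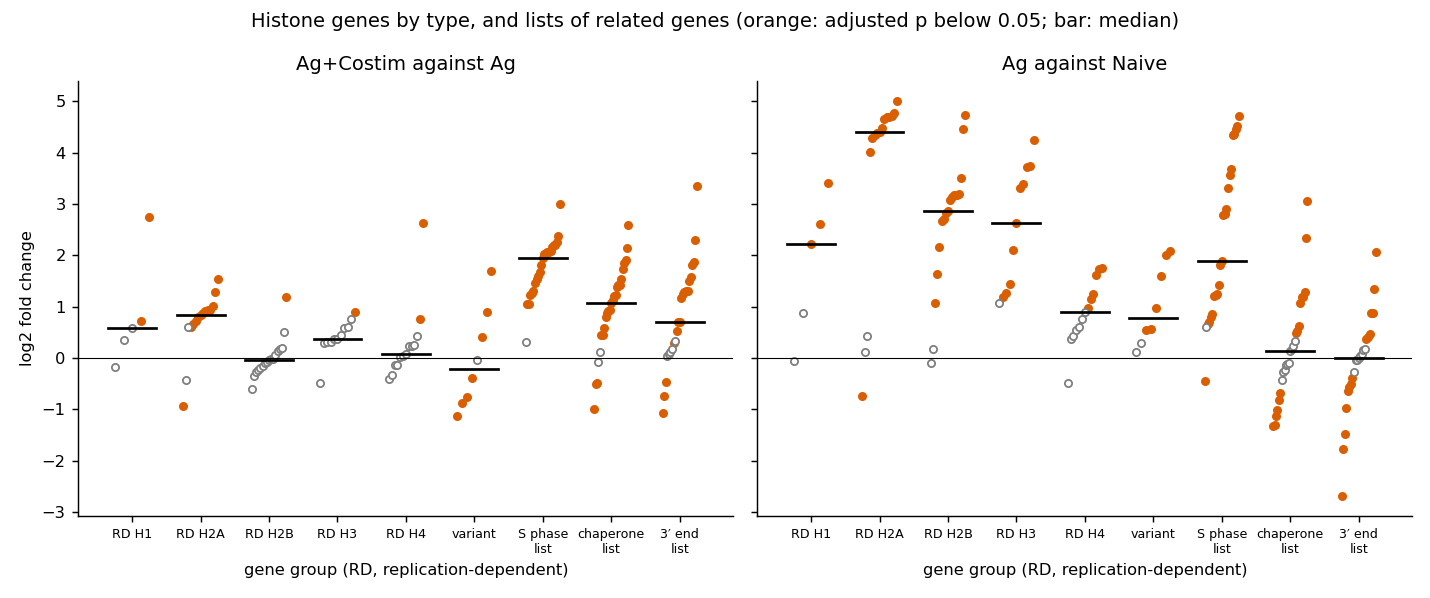
Log2 fold change (vertical axis) of single genes, sorted within each replication-dependent type, the variants and the 3 lists, for Ag+Costim against Ag (left) and Ag against Naive (right), with adjusted p below 0.05 in orange and a bar at the median of the genes plotted (Hist2h2aa1 left out). On the left the median is 1.95 for the S phase list, 0.84 for H2A and -0.05 for H2B, and on the right 1.89, 4.40 and 2.87.

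Transcript shares were compared for the 6 members with 2 or more transcripts that each held at least 10% of the gene's counts in a group. Hist1h2be was the one that passed (exact permutation test, two-sided, 5 against 5 libraries, adjusted p = 0.0476 over 6 tests, from the smallest p of 0.00794 that the design allows). Its transcript Hist1h2be-203 took 43.9, 49.7, 21.8, 45.1 and 41.2% of the gene's counts in Ag and 72.4, 83.0, 71.2, 74.3 and 68.6% in Ag+Costim. It took 80.7 and 80.1% in Naive. This transcript is annotated as a processed transcript without a coding sequence, at chr13:23618980-23621078 on the minus strand. That span overlaps Hist1h1e (chr13:23620629-23622558, same strand), and so do the spans of Hist1h2be-201 and Hist1h2be-202. Scaled to library size, and with no test, Hist1h2be-203 went from 1.85 ± 0.887 to 7.45 ± 1.13 CPM, whereas the coding Hist1h2be-202 was at 2.09 ± 1.39 and 2.62 ± 0.636. In Ag 3 the counts of Hist1h2be-202 were at 0 and a second coding transcript, Hist1h2be-201, had 2.42 CPM, while it had none in the other 11 libraries. Leaving out any 1 library other than Ag+Costim 4 lost the call (exact permutation adjusted p = 0.0952), and without Ag+Costim 4 it held (0.0317).

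The other 5 genes did not pass the test. H2afy-201, the main macroH2A transcript, held 51.7 ± 4.32% in Ag and 59.2 ± 6.62% in Ag+Costim (exact permutation adjusted p = 0.175). H3f3b-202 ranged from 38.8% to 73.3% in Ag and from 15.0% to 68.4% in Ag+Costim, and H3f3a-205 from 66.8% to 98.0% and from 68.1% to 97.9%. For both genes the range within each group was wider than the difference between the group means. H2afz-201 was at 79.8 ± 8.25% and 74.3 ± 6.24%, and H2afv-202 at 85.04 ± 1.66% and 81.6 ± 3.29%.

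The authors' Psi, the fraction of transcripts that include a stretch of a gene, is given as 1 value per group, so differences have no replicate check. It was listed for 56 stretches of 10 members, and 8 of them, in Hist1h2bq, Hist1h2be, Hist1h2br and H2afj, differed by more than 0.05 between Ag and Ag+Costim. In H2afy, exon chr13:56089758-56089857 had a Psi of 0.861 in Ag and 0.903 in Ag+Costim, and exon chr13:56088252-56088342 one of 0.117 and 0.0886. In H2afj the last stretch, chr6:136809794-136810074, went from 0.839 to 0.779. Tandem 3′ end stretches of H2afz and H3f3a differed by at most 0.00544.

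The count minimum fell in a wide gap. The members just inside it were Hist2h2ab with 224 counts over the 12 libraries and Hist1h2ba with 336, and the genes just outside it were H1fx with 32 and H2afy2 with 13. Hist2h2ab had 0.216 to 1.34 CPM in Ag and 0.256 to 0.522 in Ag+Costim. Hist1h2ba, the testis H2B gene, had 0.529 to 1.05 and 0.628 to 0.901 CPM in these groups and 0.144 and 0.08399 CPM in Naive. Of the 12 genes under the minimum, 7 had no count in any library.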

How the data were processed

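Sorted CD8+ OT-I T cells were profiled by RNA-seq after poly(A) priming with oligo-dT and single-end sequencing of 100 bases. Per the labels and the study's methods, the authors aligned reads to mm10 with HISAT2 2.1.0 and SAMtools 1.9 and assembled and counted with StringTie 2.1.0, using R 4.0.5 and DESeq2 1.30.1. Strand use and the treatment of reads with several matches are not given in the sources used here. The authors deposited estimated counts per gene and transcript, FPKM per transcript (length-scaled, named by gene only) and Whippet Psi as a fraction pooled per group. Columns of the authors' own Psi comparison (difference, probability and entropy) were not used.

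Here the estimated counts were rounded to whole numbers, and 26345 entries without an annotated gene (0.0508 to 0.121% of counts) were left out. CPM was scaled with TMM factors, and FPKM was summed per gene name. All 12 libraries were fitted together with edgeR 4.0.16 (robust quasi-likelihood, filterByExpr by group, R 4.3.3), and p-values were adjusted by the Benjamini-Hochberg method over 18817 genes at a threshold of 0.05. In simulated counts for Ag+Costim against Ag over 17698 genes, 66.5% of 200 genes changed by 1 on the log2 scale were recovered. The changed genes were drawn from those with higher mean counts. They were a far smaller part than the 53.1% of genes called in the data, so 66.5% does not give the sensitivity there. Transcript shares were compared by exact two-sided permutation. Alternatives were other scalings, no filter, the 2 groups alone, a replicate block, a gene length offset, DESeq2 1.42.0, limma 3.58.1 on log2(FPKM + 1), and leaving out each library. Depth was 23976932 to 49258758 counts, so that 3 counts are 0.0609 to 0.125 CPM, and such limits cover counting error only.

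Members and gene lists were chosen with earlier results of these data known. Named were all variants, the 10 replication-dependent genes with the most counts, those with the largest changes in each comparison, the genes next to the count minimum, genes whose transcripts passed, and in the 3 functional lists Slbp, Npat, Casp8ap2, Lsm10, Lsm11 and the chaperones described with the largest called changes. Hist1h1a, Hist1h1c, Hist1h1d, Hist1h1e, Hist1h2bj, Hist1h3d, Hist1h3g and Hist1h4i were named after their values were seen. Markers of CD8, CD4, B, myeloid, erythroid and NK cells are given as counts and sums. Sequences were read from GENCODE vM21 transcripts.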

Additional observations from a re-analysis of the deposited data

Results flagged for a closer look

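Of 152 groups of 5 libraries examined, 6 held a library whose gap to the nearest other exceeded Dixon's 95% critical value of 0.71, where chance gives about 1 in 20 groups. The groups cover a part of the members, a part of the genes of the functional lists and transcript shares. Other members were not screened. Hist1h2ac was at 0 CPM in Ag+Costim 4, against 100.3 to 117 in the other 4 libraries. Hist1h2ah was at 307 CPM in Ag+Costim 1, against 247 to 258. Hist2h2ab was at 1.34 CPM in Ag 4, against 0.216 to 0.489, and Hirip3 was at 6.25 CPM in the same library, against 2.597 to 3.56. Tk1 was at 162 CPM in Ag+Costim 4, against 205 to 221. H3f3a-205 took 68.1% of the counts of H3f3a in Ag+Costim 2, against 91.0 to 97.9%. The cause of these gaps was not tested.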

How the results depend on the processing

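Counts of calls mostly held. Between Ag+Costim and Ag, 15 (upper-quartile scaling) to 26 (gene length offset) replication-dependent genes were higher, and 16 to 21 when 1 library was left out. The count that was lower, 1, became 4 under upper-quartile scaling, 2 under RLE scaling, with the 2 groups alone, with the replicate block and by DESeq2, and 1 to 3 without 1 library (3 without Ag 5, which added Hist1h2bj and Hist1h2bc). Against Naive, 35 to 49 were higher in Ag and 43 to 51 in Ag+Costim without 1 library, and the count lower in Ag was 0 to 1 (0 without Naive 2). The variant lower in Ag+Costim than in Naive, H2afj, was not called without a filter or with a length offset (count 0), and 0 to 1 were called without 1 library (0 without Ag+Costim 2, Ag+Costim 3, Naive 1 or Naive 2). Variants higher were 5 to 6 in Ag and 4 to 5 in Ag+Costim.

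The log2 ratio of variant sums was -0.34 for Ag+Costim over Ag under upper-quartile scaling, 0.87 for Ag over Naive with total counts, and 0.68, 0.75 and 0.98 for Ag+Costim over Naive with total counts, upper-quartile scaling and FPKM. That of replication-dependent sums, Ag+Costim over Naive, was 3.77, 3.84 and 4.42 under the same settings. Without 1 library the replication-dependent ratios were 3.04 to 3.30 (Ag over Naive), 0.69 to 0.95 (Ag+Costim over Ag) and 3.93 to 4.05 (Ag+Costim over Naive), and the variant ratios 1.00 to 1.09, -0.19 to -0.10 and 0.86 to 0.94. The shift for Hist1h2be-203 was 28.9 to 35.9 points without 1 library, with an adjusted p of 0.0952 except without Ag+Costim 4 (0.0317), and 33.6 points (0.0556) at a minimum of 20 counts. Those for H2afv-202 and H2afy-201 were -4.67 to -2.57 and 5.68 to 10.1 points, and both were called without Ag+Costim 4 (exact permutation adjusted p = 0.0317).

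Signs turned for genes that were not called. For Ag+Costim over Ag these were Hist1h2ac (-0.18 with FPKM), Hist1h2ba (0.091 with a length offset) and Hist1h2bm (0.011 with the replicate block and 0.31 with a length offset). Without 1 library the values spanned -0.073 to 0.0019 for H2afy (above 0 without Ag 3), -0.19 to 0.11 for Hist1h2bm, -0.63 to 0.22 for Hist2h2ab (above 0 without Ag 4) and -0.14 to 0.040 for Asf1a. For Ag over Naive they were H2afy (-0.058 with FPKM) and Hist2h2ab (-0.13 with the replicate block, -0.15 with a length offset and -0.043 with FPKM), and without 1 library -0.53 to 1.06 for Hist2h2ab and -0.44 to 1.29 for Hist1h2be, which was called without Naive 2. For Ag+Costim over Naive they were H2afy (-0.064 under upper-quartile scaling, -0.024 with the replicate block and -0.12 with FPKM), and without 1 library -0.88 to 0.63 for Hist2h2ab. The cause was not tested. Calls of all genes, Ag against Naive, went from 4559 higher and 4233 lower to 4978 and 3353 with a length offset and 3603 and 5791 with FPKM.

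Correlations between libraries with the same number were low, at -0.0644 to 0.0951 over 9 pairs. Those of Ag with Ag+Costim were all positive (0.0159 to 0.0951), and 3 of 5 libraries in Ag and 3 of 5 in Ag+Costim correlated best with their own number. Pairs with Naive cannot decide this, because the deviations of its 2 libraries mirror each other. Whether libraries with the same number belong together was not tested. With the replicate block, 19 replication-dependent genes were higher and 2 lower for Ag+Costim against Ag, 45 and 1 for Ag against Naive, and 51 and 1 for Ag+Costim against Naive. The block lost the calls of Hist1h2ac in both comparisons with Naive (adjusted p = 0.0897 against Ag and 0.0655 against Ag+Costim), of H2afv in Ag+Costim against Naive (0.131) and of Cdt1 in Ag against Naive (0.058). Shares of FPKM per transcript were not run. Naive has 2 libraries, and Ag 4 has the lowest depth.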

Other observations

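Relatives of the histone genes that are annotated as pseudogenes or antisense genes were counted too, and no test is given for them. Hist1h2aj, an H2A pseudogene in the Hist1 cluster, had means of 1.08 CPM in Naive, 25.6 in Ag and 56.4 in Ag+Costim. The H3.3 pseudogenes H3f3c (36.2, 54.5 and 32.1 CPM) and H3f3a-ps2 (25.7, 39.1 and 23.8) were highest in Ag. H3f3aos, antisense to H3f3a, was at 1.30 CPM in Naive, 0.255 in Ag and 0.222 in Ag+Costim.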
